A study of Mus musculus with 10 samples.

Results

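Potassium channels are assembled from subunits encoded by a large set of Kcn genes, and the mouse islet transcriptome was searched for every gene whose symbol is Kcn, a lower-case stem and a number. The search found 92 genes of 47340 in the expression table, 77 of which encode subunits that line or share the pore and 15 of which encode auxiliary subunits. RNA was measured in whole pancreatic islets of 12-wk-old male, chow-fed mice, in 5 floxed control libraries (FL) and 5 βFIT2KO libraries (KO), with 1 library per mouse. The FL mice carry floxed Fitm2, the gene of the lipid droplet protein FIT2, without Cre, and their genotype label reads wild type. The KO mice carry the same floxed gene and Cre recombinase driven by the rat insulin promoter, which acts in β cells. Islets of both groups were kept overnight in CMRL medium before RNA extraction. No library of mice with Cre alone was analysed here, so the deletion and the Cre transgene cannot be told apart. The comparison asks how the set of potassium channel subunits in islets differed when β cells lacked FIT2.

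β cells couple glucose metabolism to insulin release through potassium channels. At rest, ATP-sensitive potassium (KATP) channels, built from the pore subunit Kcnj11 and the regulatory subunit Abcc8, hold the membrane negative, and they close as ATP rises. Voltage-gated and calcium-activated channels then end each action potential, while G protein-gated inward rectifiers and tandem-pore-domain channels set the resting current.

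The levels are FPKM, read counts scaled for gene length and library size, and can be compared between genes. The sum of FPKM ran from 646233 to 675470 in the FL libraries and from 627084 to 653292 in the KO libraries, and the depth of the libraries, estimated from the spacing of low values, ran from 1.41 to 2.40 times that of FL1 in the other FL libraries and from 1.52 to 2.06 times in KO. Fitm2 was at 16.9, 30.5, 16.5, 37.1 and 15.5 FPKM in FL1 to FL5 and at 4.56, 4.30, 7.75, 9.13 and 8.998 in KO1 to KO5, with no overlap, and averaged 23.3 ± 9.86 and 6.95 ± 2.36 (SD, n = 5 each; limma, Benjamini-Hochberg adjusted p = 0.00228). The β cell transcription factor Mafa and 3 other β cell markers averaged over 70 FPKM in both groups, whereas the hormone genes Ins1, Ins2, Iapp and Gcg are listed at 0 in all 10 libraries and cannot serve to check the tissue. In whole islets, fewer cells of a type and less RNA per cell cannot be told apart.

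The feature that defines the pore is the selectivity filter, in which a glycine, an aromatic residue and a second glycine line the path of the potassium ion. The coding sequence of the principal transcript of each gene (GENCODE M21, GRCm38) was searched in frame, on the coding strand, for GGNTANGGN and GGNTTNGGN, 2 motifs that cannot overlap at the same position. A match was found in 77 of 77 pore subunits and in 0 of 15 auxiliary subunits, beside 16.4% of 21803 protein-coding genes, whose coding sequences differ in length. Of the 14 tandem-pore-domain genes, 11 held 2 matches and 3 held 1 match. There were also 2 matches in 2 inward rectifiers and in 3 voltage-gated pore-forming genes, so a match need not be a filter. The motif GGNTTNGGN also admits leucine, as in 1 match of Kcna6 (TTG). The stretches below show the filter codons, in capitals, with 9 bases on each side, for subunits on which the comparison turns. Kcnj5 was read at chr9:32322550-32322576 (exon 2 of 3), Kcnj11 at chr7:46099487-46099513 (exon 1 of 1) and Kcnma1 at chr14:23528404-23528430 (exon 8 of 30), all on the minus strand. The second match was read for Kcnk10 at chr12:98440596-98440622 (exon 5 of 7), also on the minus strand. Kcna2 at chr3:107105221-107105247 (exon 3 of 3), Kcnh1 at chr1:192337751-192337777 (exon 7 of 11) and the second match of Kcnj12 at chr11:61069607-61069633 (exon 3 of 3) lie on the plus strand.
Kcnj5: acaaccattGGGTATGGCttcagagtc
Kcnj12: accaccattGGCTACGGGctacgctgt
Kcnj11: gtgaccattGGTTTCGGCgggcgcatg
Kcnk10: accacagtaGGCTTTGGTgattttgtg
Kcna2: acaactgtaGGCTATGGAgacatggtt
Kcnh1: accagtgtgGGCTTTGGTaacattgcc
Kcnma1: tctacagtgGGTTATGGGgacgtttat
The middle codon was TAT or TAC, for tyrosine, in Kcnj5, Kcnj12, Kcna2 and Kcnma1, and TTT or TTC, for phenylalanine, in Kcnj11, Kcnh1 and the second pore of Kcnk10.

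Of the 92 subunits, 84 were above 0 in at least 1 library and 8 are listed at 0 in all of them. In 40 the mean of either group was 1 FPKM or more, and these were tested. Of the 40, 5 (Kcnj5, Kcnk10, Kcna2, Kcnj4 and Kcnn4) passed only through their KO mean and 1 (Kcnh3) only through its FL mean. Just inside the limit were Kcnn4, at 1.01 FPKM in KO, and Kcnh3, at 1.08 in FL, and just outside it was Kcnn2, at 0.902 in FL.

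Islet potassium channel RNA was concentrated in few genes. Summed over all 92 subunits, the level was 700 ± 17.5 FPKM in FL and 603 ± 18.7 in KO (SD, n = 5 each). It fell by 13.9%, and the lowest FL library (677) lay above the highest KO library (633). Kcnk16, Kcnmb2, Kcnj11 and Kcnip1 together made up 63.2% of this sum in both groups. Without Kcnk16 the sum was 543 ± 18.9 FPKM in FL and 483 ± 27.9 in KO, and the groups did not overlap. Summed by class, the voltage-gated pore-forming subunits gave 137 ± 9.84 FPKM in FL and 107 ± 4.91 in KO, and the calcium- or sodium-activated ones gave 30.9 ± 1.08 and 25.8 ± 2.31. Neither of these classes overlapped between the groups, while the auxiliary, silent, inward rectifier and tandem-pore-domain sums did.

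**Figure D1:**
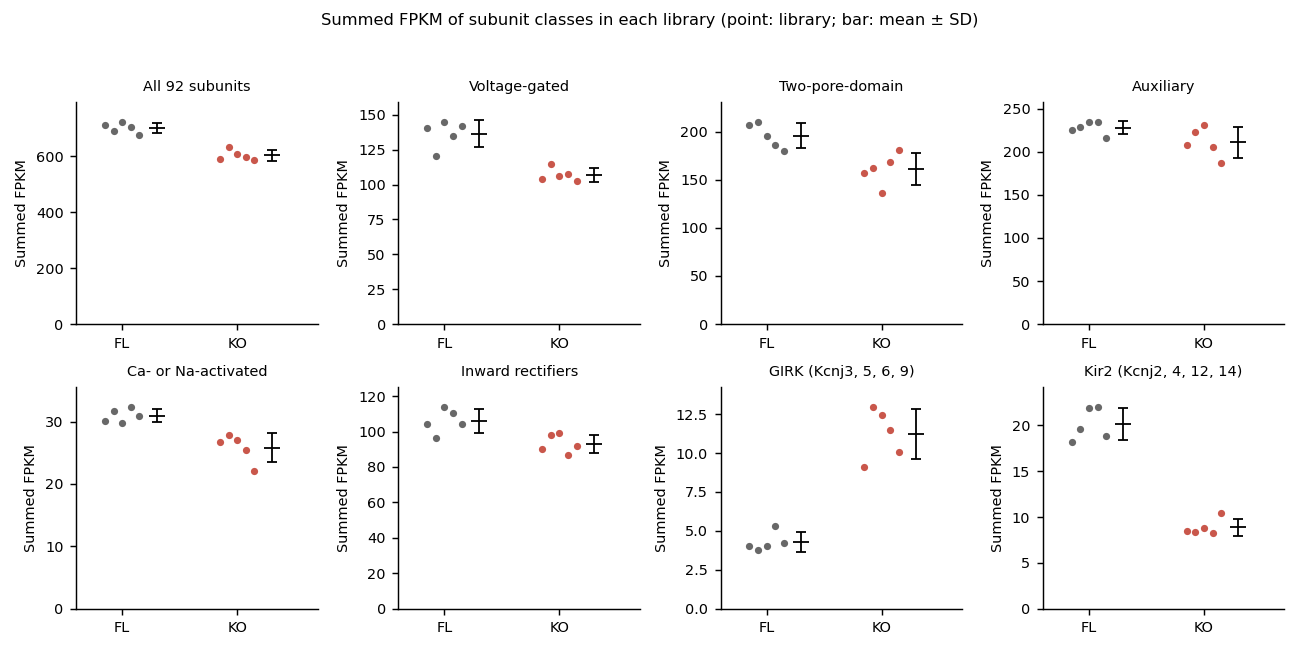
Summed FPKM (y axis) of potassium channel subunits in each FL and KO library (x axis), for all 92 genes, for 5 classes and for 2 subfamilies of inward rectifiers, where points are libraries and bars are the mean ± SD of 5 libraries. The sum of all subunits was lower in every KO library than in any FL library, and within the inward rectifiers the GIRK sum was higher and the Kir2 sum lower in every KO library.

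Each tested subunit was compared between KO and FL in a fit over all 13065 genes that passed the same limit, with log2(FPKM + 1) as the value, so that differences of subunits near or below 1 FPKM are understated. Calls needed an adjusted p of 0.05 or less. Of the 40 tested subunits, 16 were called (40.0%), beside 25.5% of all genes tested. Lower in KO were 11 subunits (27.5%, beside 16.5% of all genes) and higher were 5 (12.5%, beside 9.05%). Among the 34 subunits that passed the limit in both groups, 11 were called lower and 2 higher, beside 16.8% and 8.12% of the 12368 genes that did so. FL and KO values did not overlap for 13 of the 40 (32.5%, beside 19.1% of all genes), of which 8 were lower and 5 higher. Among the 34 that passed in both groups, 9 did not overlap (26.5%, beside 18.4% of such genes). The exact Wilcoxon test used below as an alternative called the genes without overlap and no others, so it adds no separate evidence. The median difference over the 40 subunits was -0.15, beside -0.06 over all genes tested. Rescaling the libraries by median ratio gave 10 lower and 7 higher subunits, beside 1685 and 1544 of all genes, and rescaling by upper quartile gave 9 and 7, beside 1448 and 1687, against 2150 and 1183 of all genes without rescaling.

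**Figure D2:**
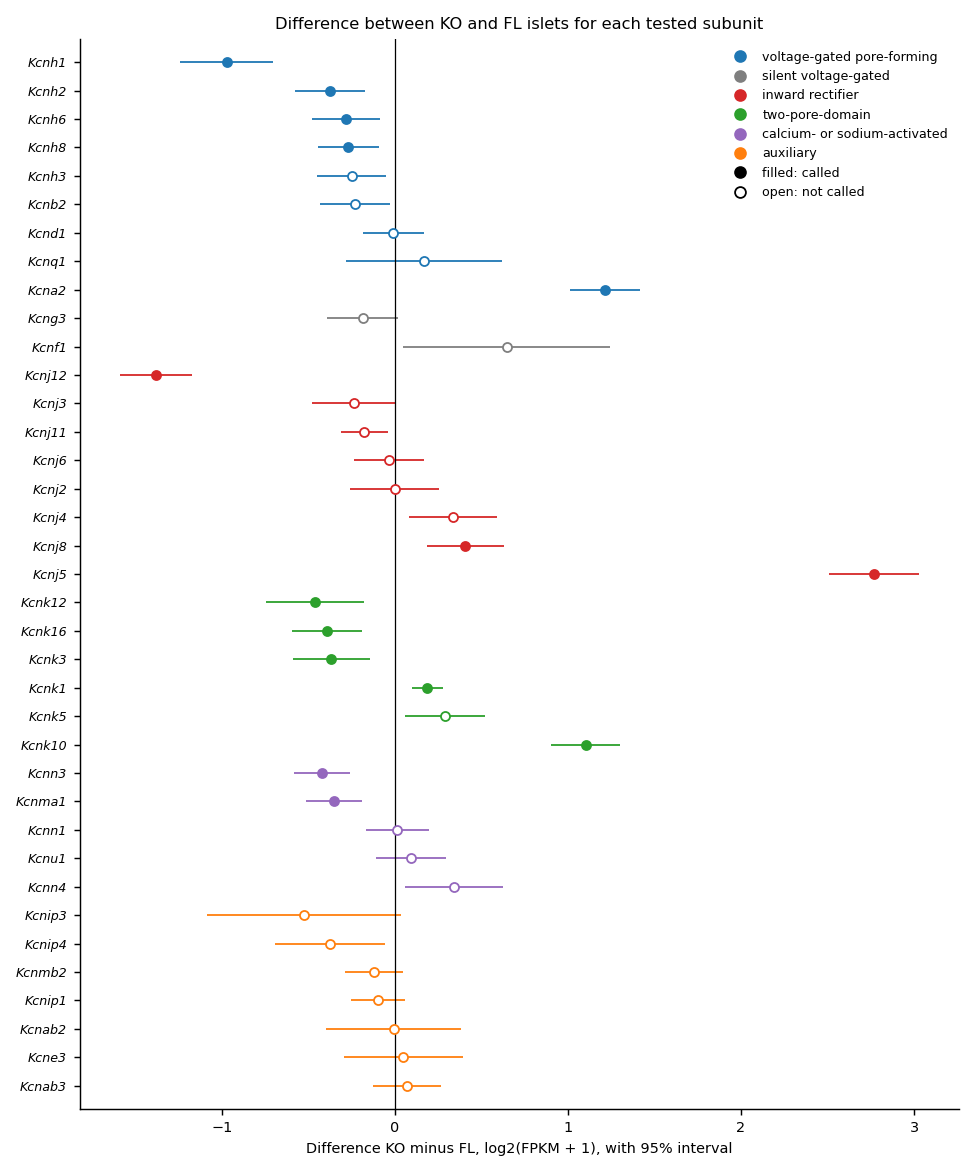
Difference between KO and FL on the log2(FPKM + 1) scale (x axis), with its 95% interval, for 37 of the 40 tested subunits (y axis), ordered by class, with filled points for called subunits. Kcnj5 lies farthest to the right at 2.77 and Kcnj12 farthest to the left at -1.38, and none of the auxiliary subunits is filled.

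Among the inward rectifiers, the G protein-gated subunit Kcnj5 had the largest rise of the 40 tested subunits and the strong rectifier Kcnj12 the largest fall, while the KATP pore Kcnj11 was not called. Of the 15 genes of this class, 8 were tested, 1 was lower and 2 were higher, beside 16.5% and 9.05% of all genes tested, and 1 of the higher (Kcnj5) passed the limit only through its KO mean.

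Kcnj5 encodes GIRK4, a subunit of channels that open when the βγ subunits of an inhibitory G protein bind. The gene lies at chr9:32314707-32344350 on the minus strand. In FL1 to FL5 its level was 0.178, 0.274, 0.172, 0.512 and 0.201 FPKM, and in KO1 to KO5 it was 5.94, 9.09, 8.79, 7.85 and 6.77. Every KO library was therefore more than 10 times the highest FL library. The mean rose 28.8-fold, from 0.267 ± 0.143 to 7.69 ± 1.33 FPKM (SD, n = 5 each), a difference of 2.77 ± 0.12 (SE) on the log2(FPKM + 1) scale (limma, adjusted p = 6.54e-08). The call was kept in all 24 alternatives tried. The other GIRK subunits did not show this: Kcnj6 averaged 2.38 FPKM in FL and 2.31 in KO, Kcnj3 averaged 1.61 and 1.21 (adjusted p = 0.134), and Kcnj9 was below 0.1 FPKM in every library. The GIRK sum thus went from 4.28 ± 0.622 to 11.2 ± 1.603 FPKM, and the ratio of Kcnj5 to Kcnj6, both per length, from 0.111 ± 0.0494 to 3.37 ± 0.630. Kcnj6 exceeded Kcnj5 in all FL libraries and Kcnj5 exceeded Kcnj6 in all KO libraries.

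Kcnj12 encodes Kir2.2, a constitutively open strong inward rectifier, and lies at chr11:61022564-61071131 on the plus strand. It stood at 16.0, 17.3, 20.03, 20.01 and 16.8 FPKM in FL1 to FL5, and at 5.64, 6.38, 6.06, 5.55 and 7.95 in KO1 to KO5. Every KO library was below 8 FPKM and every FL library above 15 FPKM. The mean fell by 64.9%, from 18.01 ± 1.89 to 6.32 ± 0.971 FPKM, a difference of -1.38 ± 0.10 (SE, limma, adjusted p = 2.93e-06). Its relatives did not follow. Kcnj2 averaged 1.41 FPKM in FL and 1.42 in KO, Kcnj14 stayed below 0.1 FPKM, and Kcnj4 averaged 0.674 in FL and 1.12 in KO with overlapping libraries (adjusted p = 0.056, called in 8 of its 22 alternatives, such as without FL1 at 0.0425 or without KO3 at 0.0228). The Kir2 sum went from 20.1 ± 1.73 to 8.87 ± 0.883 FPKM.

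The promoter windows of these subunits with the largest rise and the largest fall are shown because the RNA of each moved by more than the RNA of any other tested subunit in its direction. The windows hold the 250 bases before the transcription start in RefSeq (GRCm38.p6), Kcnj5 at chr9:32344345-32344594 on the minus strand and Kcnj12 at chr11:61065554-61065803 on the plus strand. The 6 motifs searched on both strands were TGACGTCA (the cyclic AMP element), TTCNNNGAA (the STAT site), CACGTG (the E box), TATAAA (the TATA box), GGGCGG (the GC box) and CCAAT (the CCAAT box), none of which contains another, and matches are in capitals.
Kcnj5: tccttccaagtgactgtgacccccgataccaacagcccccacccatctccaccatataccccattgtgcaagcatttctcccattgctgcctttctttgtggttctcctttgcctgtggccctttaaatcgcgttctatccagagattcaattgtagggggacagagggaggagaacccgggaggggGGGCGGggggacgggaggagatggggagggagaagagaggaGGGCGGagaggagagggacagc
Kcnj12: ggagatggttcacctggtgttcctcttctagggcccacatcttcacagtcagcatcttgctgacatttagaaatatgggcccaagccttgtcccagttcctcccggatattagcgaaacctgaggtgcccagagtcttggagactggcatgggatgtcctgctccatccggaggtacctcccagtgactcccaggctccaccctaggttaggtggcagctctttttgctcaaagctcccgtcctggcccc
The Kcnj12 window precedes an internal start, shared by 2 of its 3 GENCODE M21 transcripts and 43.2 kb downstream of the start of the longest, whose promoter was not analysed here. The Kcnj5 window held GGGCGG 2 times and the Kcnj12 window held none of the 6 motifs. Of all 32851 windows of this length, 32.7% held GGGCGG, 33.8% CCAAT, 12.4% TATAAA, 7.02% TTCNNNGAA, 6.02% CACGTG and 1.55% TGACGTCA. A window was found for 67 of the 92 subunits and for 14 of the 16 called ones. The 92 windows of these 67 genes held GGGCGG in 44.6%, CCAAT in 29.3%, TATAAA in 3.26%, TTCNNNGAA in 7.61%, CACGTG in 6.52% and TGACGTCA in 0%. Their median GC content was 58.6%, beside 52.4% over all windows.

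Kcnj11 had the highest level of the inward rectifiers in both groups. The gene, at chr7:46093953-46100764, stood at 79.3, 70.3, 86.3, 81.3 and 79.2 FPKM in FL and at 69.8, 73.3, 74.2, 64.4 and 67.8 in KO. The groups overlapped through FL2, and the mean was 79.3 ± 5.77 in FL and 69.9 ± 4.05 in KO, a difference of -0.18 ± 0.06 (SE) with a 95% interval of -0.31 to -0.04. At an adjusted p of 0.0545 in limma it was not called, and it was called with sample weights (0.027) and without FL2 (0.02), KO2 (0.0496) or KO3 (0.048). Its partner Abcc8 (SUR1), the target of sulfonylureas, fell from 281 ± 15.0 to 227 ± 16.8 FPKM without overlap (adjusted p = 0.00386).

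Both genes of the second KATP pair were higher in KO. Kcnj8 (Kir6.1), the pore of vascular KATP channels, was at 2.01, 2.33, 1.42, 1.40 and 1.59 FPKM in FL and at 2.51, 2.68, 2.83, 2.37 and 2.71 in KO. The highest FL library lay just under the lowest KO library, and the mean rose 1.496-fold (difference 0.41 ± 0.10, adjusted p = 0.0141). Its partner Abcc9 (SUR2) rose from 1.72 ± 0.417 to 2.84 ± 0.376 FPKM (adjusted p = 0.00891). Markers of pericytes and stroma moved with this pair. Of 9 markers, 6 were tested and all 6 were higher in KO, beside 9.05% of all genes tested. The sum of the 9 was 17.6 to 26.4 FPKM in FL and 33.5 to 41.5 in KO. Among the defining pericyte markers, Pdgfrb averaged 4.39 and 6.54 FPKM and Rgs5 6.84 and 9.45, and no marker of the list is listed at 0 throughout. Their part in the rise of Kcnj8 was not tested.

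**Figure D3:**
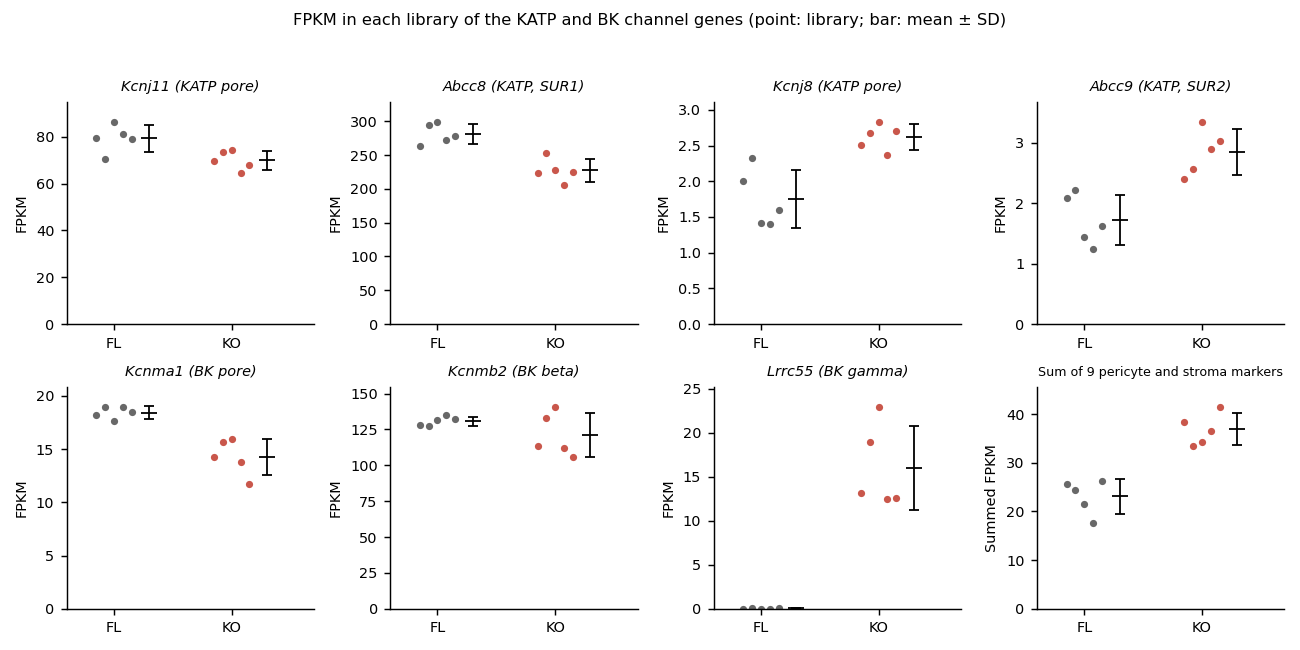
FPKM (y axis) in each FL and KO library (x axis) of both pairs of KATP genes, of 3 genes of the large-conductance calcium-activated (BK) channel, and the summed FPKM of 9 pericyte and stroma markers, where points are libraries and bars are the mean ± SD of 5 libraries. Abcc8 and Kcnma1 lie lower in every KO library, Kcnj8, Abcc9, Lrrc55 and the marker sum lie higher in every KO library, and Kcnj11 and Kcnmb2 overlap.

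The tandem-pore-domain channels carry background potassium current. Of 14 genes, 6 were tested and 5 were called, beside 25.5% of all genes tested. Of these, 3 were lower and 2 higher, and 1 of the higher (Kcnk10) passed the limit only through its KO mean.

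Kcnk16 (TALK1), a pancreas-enriched channel opened by alkaline pH, had the highest level of all 92 subunits in FL. Its level was 167, 173, 156, 149 and 142 FPKM in FL1 to FL5 and 116, 120, 97.7, 128 and 139 in KO1 to KO5. The groups came close, at FL5 and KO5, but did not overlap. The mean fell by 23.7%, from 158 ± 12.8 to 120 ± 15.3 FPKM (difference -0.39 ± 0.09, limma, adjusted p = 0.00986). In KO its level no longer stood apart from that of Kcnmb2, at 121 ± 15.1 FPKM. Kcnk16 lies at chr14:20261376-20269199, 79.6 kb from Kcnk5 (TASK2) on the same strand, and Kcnk5 averaged 1.25 FPKM in FL and 1.75 in KO (adjusted p = 0.0661, called in 6 of its 23 alternatives, such as without FL4 at 0.0295 or without KO3 at 0.0287).

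Kcnk10 (TREK2), a channel opened by membrane stretch and fatty acids, was near 0 in FL. It was at 0.0910, 0.0822, 0.0985, 0.0646 and 0.113 FPKM in FL and at 1.34, 1.33, 1.13, 1.499 and 1.41 in KO. Every KO library was above 1 FPKM, and no FL library came near that level. The mean rose 14.9-fold, from 0.0899 ± 0.0182 to 1.34 ± 0.136 FPKM (difference 1.10 ± 0.09, adjusted p = 1.08e-05), and the gene lies at chr12:98429437-98578310.

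Kcnk1 (TWIK1), a weakly conducting background channel, showed a small difference with little spread. It was at 24.9, 23.2, 24.3, 24.0 and 24.5 FPKM in FL and at 28.8, 27.4, 27.1, 28.5 and 26.5 in KO. The groups did not overlap, and the mean rose 1.14-fold (difference 0.19 ± 0.04, adjusted p = 0.00682). Its exons overlap those of an antisense gene, Gm45875. Kcnk3 (TASK1), an acid-sensitive channel, fell from 5.90 ± 0.748 to 4.35 ± 0.686 FPKM (adjusted p = 0.0212), and Kcnk12 (THIK2), a largely silent channel, from 5.82 ± 0.534 to 4.02 ± 1.03 (adjusted p = 0.0225). Both of these overlapped between the groups, and the exons of Kcnk3 overlap those of an antisense gene, Gm9899. As FL and KO overlapped, the exact Wilcoxon test could call neither subunit (adjusted p = 0.0642 for both). In limma, Kcnk3 was not called with upper quartile scaling (0.051) or a replicate block (0.0756), nor Kcnk12 without the limit on low FPKM (0.0528). Without FL3 the adjusted p was 0.0528 for Kcnk3 and 0.0552 for Kcnk12, without KO1 it was 0.053 for both, and without KO4 it was 0.0567 for Kcnk12.

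Of the 30 voltage-gated pore-forming subunits, 12 were tested, 5 were lower and 1 was higher, beside 16.5% and 9.05% of all genes tested. The falls included 4 of the 5 tested genes of the ether-à-go-go (Kcnh) stem, and the rise was in Kcna2.

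Within the Kcnh stem, which holds the EAG, ERG and ELK channels, the sum went from 88.2 ± 9.51 to 65.8 ± 4.40 FPKM. Kcnh1 (EAG1), a non-inactivating channel, was at 6.11, 4.64, 5.12, 5.29 and 4.32 FPKM in FL and at 2.82, 1.39, 2.14, 1.97 and 2.31 in KO. The groups did not overlap, and the mean fell by 58.3%, from 5.10 ± 0.682 to 2.13 ± 0.517 (difference -0.97 ± 0.12, adjusted p = 0.000242). It lies at chr1:192190774-192510159. Kcnh2 (ERG1), the most abundant voltage-gated subunit, was at 67.0, 52.0, 73.4, 65.6 and 69.9 FPKM in FL and at 46.6, 53.9, 45.3, 54.5 and 50.1 in KO. Only FL2 lay within the KO range. The mean fell by 23.7% (difference -0.38 ± 0.09, adjusted p = 0.0124). Kcnh2 was not called with a replicate block (0.0502), and with this overlap the exact Wilcoxon test could not call it (0.102). Kcnh6 (ERG2) fell from 14.3 ± 2.05 to 11.5 ± 0.806 FPKM with overlap (adjusted p = 0.0375). It was not called in 13 of its 24 alternatives, the 4 rescalings among them (0.0814 to 0.114), nor without FL1, FL3, FL5, KO1, KO3 or KO5 (0.0663 to 0.0873). Kcnh8 (ELK1), a slowly gating channel, was at 1.56, 1.89, 1.83, 1.52 and 1.70 FPKM in FL and at 1.25, 1.38, 1.36, 1.12 and 1.11 in KO. It fell by 27.0% without overlap (adjusted p = 0.0289), and was not called without FL2, FL3, FL5, KO1, KO4 or KO5 (0.0573 to 0.0705). Kcnh3 (ELK2) was below FL in every KO library, at 1.08 ± 0.107 and 0.752 ± 0.140 FPKM, and was not called (adjusted p = 0.067, called in 7 of its 22 alternatives), and its exons overlap those of the antisense gene Mcrs1.

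Kcna2 (Kv1.2), a low-threshold channel best known from axons, was the only tested member of its stem. It was at 0.967, 0.608, 0.976, 0.981 and 0.695 FPKM in FL and at 3.39, 3.24, 3.72, 3.20 and 2.82 in KO. The lowest KO library was well above the highest FL library, and the mean rose 3.87-fold (difference 1.21 ± 0.09, adjusted p = 5.62e-06). It lies at chr3:107101146-107115005 between Kcna3, at 0.0634 and 0.0676 FPKM, and Kcna10, listed at 0 throughout.

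The other 6 tested voltage-gated subunits, Kcnh3 and Kcnb2 included, were not called. Kcnb2 (Kv2.2), a delayed rectifier, averaged 2.92 FPKM in FL and 2.33 in KO with overlapping libraries (adjusted p = 0.0864). Kcnq1, whose channels take up KCNE subunits, averaged 1.82 and 2.16 FPKM. Kcnd1 (Kv4.1), the A-type pore, averaged 1.97 and 1.95. Of the 10 electrically silent subunits, which modify Kv2 channels and form no channel alone, Kcng3 and Kcnf1 were tested. By limma 0 were called, beside 25.5% of all genes tested, and so few genes cannot be compared with that share. An exact Wilcoxon test, which called only genes without overlap, also called 0, and 1 (Kcnf1) had an unadjusted limma p under 0.05. Kcng3 averaged 1.88 and 1.52 FPKM (adjusted p = 0.164). Kcnf1 was at 1.43, 1.16, 1.74, 2.85 and 1.42 FPKM in FL and at 2.34, 4.54, 6.44, 1.59 and 2.503 in KO, with overlap and with most of its spread in KO (adjusted p = 0.106, called without KO4 at 0.0485).

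**Figure D4:**
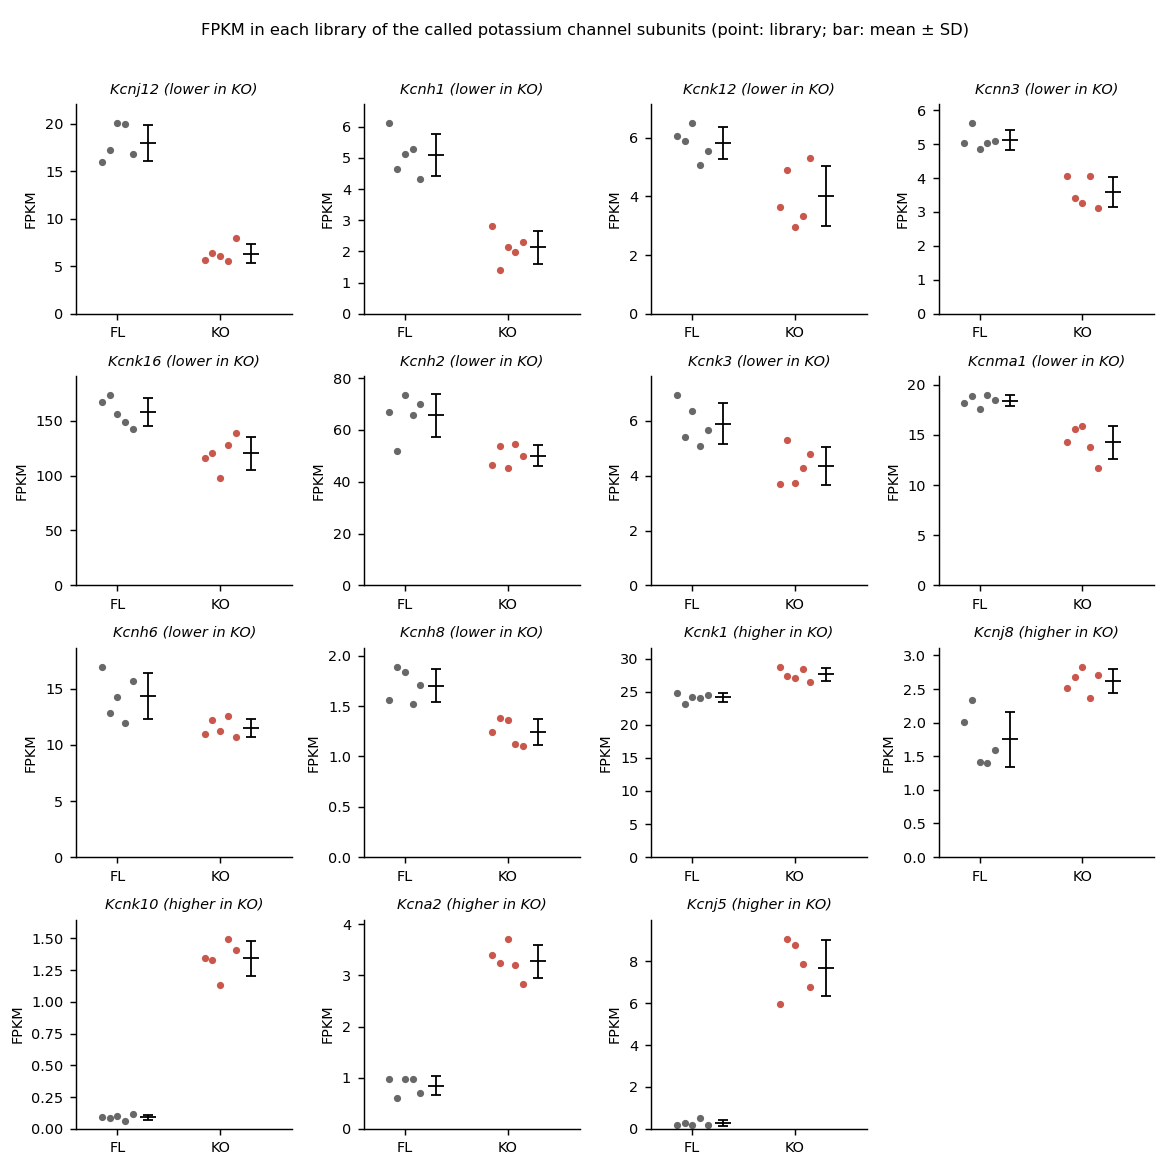
FPKM in each FL and KO library (y axis, from 0, with its own range in each panel) of 15 of the 16 called subunits, ordered from the largest fall to the largest rise on the log2(FPKM + 1) scale, where points are libraries and bars are the mean ± SD of 5 libraries. Kcnk12, Kcnh2, Kcnk3 and Kcnh6 are the subunits drawn whose FL and KO points overlap, and Kcnk10, Kcna2 and Kcnj5 rise from levels below 1 FPKM.

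Of the 8 calcium- or sodium-activated pore subunits, 5 were tested, 2 were lower and 0 were higher by limma or an exact Wilcoxon test, beside 16.5% and 9.05% of all genes tested by limma. There was 1 (Kcnn4) higher at an unadjusted limma p under 0.05. Kcnma1, the pore of the BK channel, was at 18.2, 18.9, 17.6, 19.0 and 18.5 FPKM in FL and at 14.3, 15.6, 15.9, 13.8 and 11.7 in KO. The groups did not overlap and the mean fell by 22.6%, from 18.4 ± 0.572 to 14.3 ± 1.67 (difference -0.35 ± 0.07, adjusted p = 0.00527). Its exons overlap those of an antisense gene. Kcnn3 (SK3), a small-conductance channel that calcium opens through calmodulin, was at 5.03, 5.61, 4.85, 5.02 and 5.11 FPKM in FL and at 4.06, 3.40, 3.27, 4.05 and 3.12 in KO. No KO library reached the FL range, and the mean fell by 30.1% (difference -0.42 ± 0.07, adjusted p = 0.002). Kcnn1 averaged 1.37 and 1.39 FPKM. Kcnn4, the intermediate-conductance channel, averaged 0.588 and 1.01 with overlap (adjusted p = 0.0779) and was called in 3 of its 18 alternatives, which were eBayes without a trend (0.0471), sample weights (0.0344) and the fit without KO3 (0.0223). Kcnu1, known as a sperm channel, averaged 4.36 and 4.73 (adjusted p = 0.504).

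Of the 15 auxiliary subunits, 7 were tested and 0 were called by limma, beside 25.5% of all genes tested. An exact Wilcoxon test, which called only genes without overlap, also called 0, and 1 (Kcnip4) had an unadjusted limma p under 0.05. With 7 genes tested, the share of the class rests on few genes. The class held Kcnmb2 and Kcnip1, which were among the 4 most abundant of the 92 genes. Kcnmb2, the BK subunit that inactivates the channel, was at 128, 128, 132, 135 and 132 FPKM in FL and at 113, 133, 141, 112 and 106 in KO. The KO libraries fell on both sides of the FL range (difference -0.12, 95% interval -0.29 to 0.05, adjusted p = 0.281). The ratio of Kcnmb2 to Kcnma1, both per length, was 7.11 ± 0.267 in FL and 8.49 ± 0.454 in KO and did not overlap (lowest KO 7.93, highest FL 7.49). Kcnip1 (KChIP1), a calcium sensor of Kv4 channels, averaged 74.9 and 69.9 FPKM (difference -0.10, 95% interval -0.25 to 0.06). It stood at 38.3 ± 4.77 times its pore partner Kcnd1 in FL and at 35.9 ± 1.52 times in KO. Kcnip3 averaged 3.36 ± 1.41 and 1.98 ± 0.866 FPKM (adjusted p = 0.157), and Kcnip4 averaged 4.53 and 3.29 (adjusted p = 0.0791) and was called without KO4 (0.0326). Kcnab3, Kcne3 and Kcnab2 averaged 5.66, 4.12 and 2.14 FPKM in FL and 5.95, 4.25 and 2.09 in KO.

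Of the 52 subunits under the limit, the 44 above 0 in a library were fitted without it, over 24792 genes, as an alternative. Of these 44, 1 was called lower and 5 higher, beside 7.54% and 5.08% of all genes in this fit and 1.01% and 2.63% of the 11727 under the limit. Kcnh5 (EAG2), a close relative of Kcnh1, fell from 0.309 ± 0.143 to 0.0303 ± 0.0122 FPKM without overlap (limma, adjusted p = 0.00679). Kcnj1 (ROMK), a kidney channel, rose from 0.0123 ± 0.00844 to 0.111 ± 0.0317 FPKM (adjusted p = 0.00161), and the annotated starts of Kcnj1 and Kcnj5 lie 28.1 kb apart on opposite strands. Kcnmb1, Kcnk6 and Kcnk9 rose from 0.307, 0.306 and 0.0455 FPKM to 0.678, 0.641 and 0.204. Kcns2 is at 0 throughout FL and at 0.0248 to 0.0309 FPKM in KO, and Kcne2 is above 0 in KO5 alone. Kcnv1, Kcnk4, Kcng4, Kcna10, Kcnk18, Kcns1, Kcng1 and Kcnmb3 are listed at 0 in all libraries. Of the 9 pairs of neighbouring subunit genes within 100 kb of each other, the pair of Kcnj5 and Kcnj1 was the one in which both were called without the limit.

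**Figure D5:**
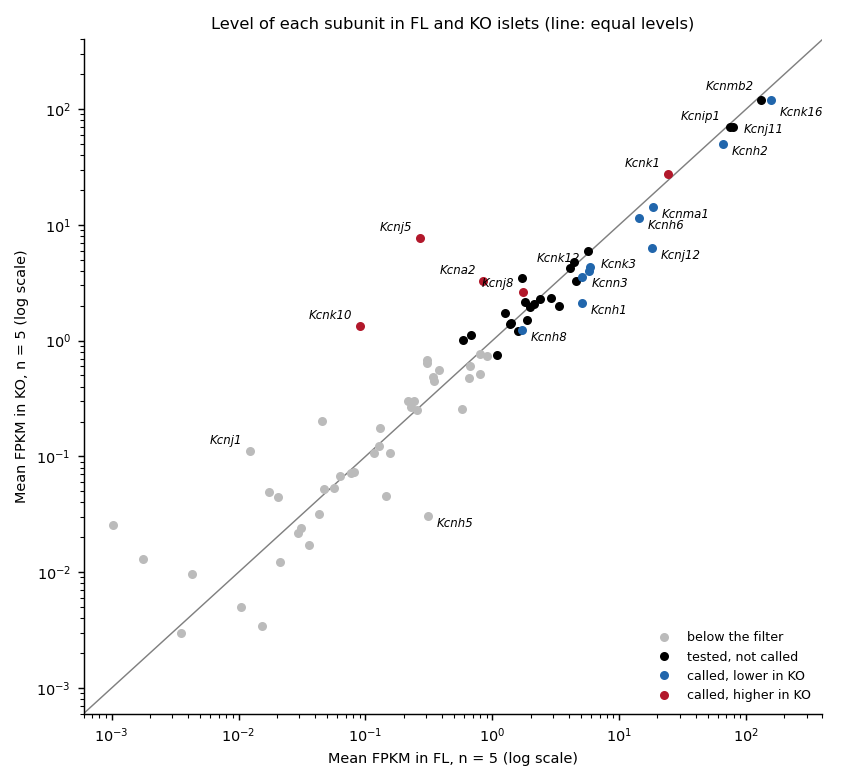
Mean FPKM in KO (y axis, log scale) against mean FPKM in FL (x axis, log scale) of subunits above 0 in both groups, where the line marks equal levels and colours mark the calls. Most subunits lie near the line from 0.01 to over 100 FPKM, Kcnj5 and Kcnk10 lie far above it, and Kcnj12, Kcnh1 and Kcnh5 lie below it.

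The genes that work with these subunits were compared in the same fit. Of 36 partner genes, 31 were tested, 10 were lower and 5 were higher, beside 16.5% and 9.05% of all genes tested. Lrrc55, a γ subunit that shifts the opening of BK channels to more negative voltage, was at 0.0211, 0.0913, 0.00945, 0.0112 and 0.111 FPKM in FL and at 13.1, 18.9, 23.0, 12.4 and 12.5 in KO. It passed the limit only through its KO mean and was chosen after its values were seen. Every KO library stood above 12 FPKM, while the pore Kcnma1 was lower and the β subunit Kcnmb2 was not called. Among partners of Kv4 and Kv2 channels, Dpp6 and Dpp10 were lower and Amigo2 was higher, at 31.3 to 38.6 FPKM in FL and 43.3 to 57.7 in KO. Among the HCN pacemaker channels, which carry sodium and potassium, Hcn2, Hcn3 and Hcn4 fell. Of the 11 tested genes of the sodium-potassium ATPase, 4 were lower and 1 was higher, and the regulator Fxyd6 fell from 123 ± 6.09 to 63.4 ± 3.12 FPKM. Of the 3 calmodulin genes, sensors of the SK channels, 0 were called by limma or by an exact Wilcoxon test, and 1 (Calm2) had an unadjusted limma p under 0.05.

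Markers of several cell types in islets differed between the groups. Over all genes tested, 16.5% were lower and 9.05% higher, and the shares of the shorter lists below rest on few genes. All 4 tested β cell markers (Slc2a2, Mafa, Nkx6-1 and Ucn3) were lower in KO, and the β cell sum was 757 to 980 FPKM in FL and 444 to 659 in KO. Endothelial markers were higher in 3 of 6, and macrophage and leukocyte markers in 2 of 4 tested, with sums of 46.9 to 65.1 FPKM in FL and 85.7 to 96.9 in KO. The sums of acinar markers (3614 to 9062 in FL, 2358 to 17327 in KO) and of the PP cell hormones (5375 to 21566 and 12395 to 17338) overlapped, and 0 of their genes were called by limma or by an exact Wilcoxon test, nor did any have an unadjusted p under 0.05. Of the other lists, 2 of 6 tested α cell, 1 of 4 δ cell and 1 of 4 Schwann cell and neuron markers were lower, and 1 of 4 duct markers was higher. The α cell sum (505 to 733 FPKM in FL, 359 to 495 in KO) was lower in every KO library. So was the Schwann cell and neuron sum (60.6 to 79.1 and 46.3 to 57.5), while the δ cell sum overlapped (4960 to 5852 and 3993 to 5339). The fall of the subunits lower in KO ran beside lower β cell, α cell and Schwann cell and neuron sums, whose part in it was not tested. Kcnj12 fell by 64.9% and Kcnh1 fell by 58.3%, while the sum of all subunits, which does not measure β cells, fell by 13.9%. Of the β cell markers, Mafa averaged 253 FPKM in FL and 113 in KO and Slc2a2 245 and 151. Ucn3 averaged 315 and 209, and Nkx6-1 108 and 76.0.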

How the data were processed

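Polyadenylated RNA of mouse islets was sequenced on stranded single-end 75-nt libraries. The submitters' processing notes name STAR 2.5.2a, Cuffnorm 2.2.1 and the mm10 (GRCm38) genome, and the authors deposited FPKM per gene. Whether counting used the strand is not given in the sources used here, so for genes with antisense exons the strands cannot be told apart. FPKM hold no counts, so no counting error is given.

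FL and KO were compared with limma 3.58.1 (R 4.3.3; lmFit, eBayes with trend) on log2(FPKM + 1) over the 13065 genes that averaged 1 FPKM or more in either group, without covariates, with Benjamini-Hochberg adjustment. The p-values reflect the spread between mice. The fit was tested on simulated data. Python 3.11.15 with pandas 2.3.3 made the tables and matplotlib 3.10.9 the figures (numpy 2.4.6). All 92 identifiers match GENCODE M21 without version and 60 with it.

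The members, the class of each stem and the lists of partners and markers were chosen with earlier results of these data known. Named with each library's value were called subunits without overlap, the most abundant subunits of each class, and Kcnj11. Some results that the rule covers are not reported here. Lrrc55 was chosen after its values were seen. Alternatives were other pseudocounts (0.1 and 0.01), filters, scalings, limma settings, an exact Wilcoxon test, a replicate block, other thresholds and each library left out. A filter on the mean over all libraries was added after the data had been seen.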

Additional observations from a re-analysis of the deposited data

Results flagged for a closer look

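Among 80 groups of 5 libraries (40 tested subunits in FL and in KO), 8 held a library far from the other 4, where chance gives about 1 in 20 groups, or 4. In FL, library FL2 stood high for Kcnab3 (7.30 FPKM, others 5.17 to 5.36) and for Kcne3 (6.285 FPKM, others 3.43 to 3.72). Library FL4 stood high for Kcnb2 (3.63 FPKM, others 2.65 to 2.84) and Kcnu1 (5.19 FPKM, others 4.12 to 4.19), and FL1 for Kcnip4 (6.08 FPKM, others 3.93 to 4.31). In KO, library KO3 stood low for Kcnk5 (1.31 FPKM, others 1.73 to 1.90) and Kcnn4 (0.563 FPKM, others 1.07 to 1.17) and high for Kcnn1 (1.65 FPKM, others 1.28 to 1.37). None of these 8 subunits was called in the comparison. Without KO3, Kcnk5 and Kcnn4 were called at adjusted p of 0.0287 and 0.0223.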

How the results depend on the processing

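With the thresholds for a call unchanged, 11 of the 16 called subunits kept their call in every alternative in which they could be fitted. The other 5 lost it in some (Kcnh6 in 13, Kcnh8 in 7, Kcnk12 and Kcnk3 in 5 each, Kcnh2 in 2), and none reversed. The subunits called lower, 11 in the comparison as reported, were 7 with a replicate block, 2 with a change of at least 1.5-fold, 6 at an adjusted p of at most 0.01 and 14 with sample weights. Leaving out 1 library gave 7 (without FL3 or KO1) to 12. The subunits called higher, 5 as reported, were 10 without the limit on low FPKM, 2 at a mean of at least 5 FPKM, 8 without a trend in eBayes, 8 with sample weights and 3 with a change of at least 1.5-fold. Leaving out 1 library gave 5 to 8 (without KO3). The median difference, -0.15 as reported, was -0.0068 without the limit, -0.35 at 5 FPKM, -0.10 with median ratio scaling, -0.082 with upper quartile scaling and -0.10 with quantile normalization, and ran from -0.19 to -0.10 with 1 library left out. The replicate numbers showed no sign of pairing the mice (correlations of deviations from -0.102 to 0.00305), which does not exclude pairing. With the block, Kcnh2 (limma, adjusted p = 0.0502), Kcnh6, Kcnh8 and Kcnk3 were not called. Depth was estimated only relative to FL1, so counting error of subunits near 0 is unknown.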
